A study of Mus musculus with 32 samples.

Results

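The 8 genes Axl, Mertk, Tyro3, Gas6, Pros1, Mfge8, Itgav and Itgb5 code for the TAM receptors, their ligands, and a bridging protein with its integrin receptor. They were taken by name, as 8 of the 55341 genes counted in every library. The libraries were single-cell RNA-seq libraries of the cortex and hippocampus of 16 female mice aged 15 months, 1 library per region and mouse. WT-vehicle (5 mice) and Tg2576-vehicle (4 mice) had plain drinking water, while WT-PMX205 (3 mice) and Tg2576-PMX205 (4 mice) had the C5aR1 antagonist PMX205 in the water for 12 weeks, at a dose in the range of 2 to 8 mg/kg/day. Tg2576 mice carry human APP with the Swedish mutations under the hamster prion protein promoter, and WT mice are their littermates. The strain labels give another amyloid line than the study, contradict the genotype label in 2 mice (WT-vehicle 4 and Tg2576-vehicle 3), and also name a C5ar1 knockout in 5 mice or C5a overexpression under the GFAP promoter in 5. Groups followed the genotype and treatment labels. C5ar1 RNA was read in microglia as CPM (the UMIs of a gene relative to the whole UMI total of the summed cells). It was between 16.1 and 66.7 CPM, on 1, 1, 6 and 7 UMIs, in the 4 mice labeled as knockouts that had enough microglia. It was between 0 and 63.9 CPM in the 6 mice with neither label and between 0 and 89.0 CPM in the 5 labeled for C5a overexpression. Values on so few UMIs do not settle the labels.

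Cells that die display phosphatidylserine on their surface, and phagocytes recognize it through bridging proteins. Gas6 and Pros1 (protein S) bind the lipid and activate the TAM receptor tyrosine kinases: Pros1 acts on Tyro3 and Mertk, and Gas6 on all members of the family. Mfge8 (lactadherin) binds the same lipid and engages the integrin formed by the products of Itgav and Itgb5. In the brain this route serves the uptake of dying cells and of synaptic material, with Mertk known as a phagocytic receptor of microglia and astrocytes and Axl as a receptor that rises in inflamed phagocytes.

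The libraries held between 37205 and 1072049 UMIs, and 5625 cells with a median of 900 UMIs passed the filters and the removal of doublets. Cells were put in a class by marker genes that did not include the 8 genes, which gave 2341 microglia, 1181 astrocytes, 191 mural cells and 145 endothelial cells, 30 perivascular macrophages (PVM), 13 OPC, 8 ependymal cells, 5 neurons and 3 lymphocytes or neutrophils. The other 1708 cells had no class. CD11b and ACSA-2 beads enriched microglia and astrocytes, so the vascular cells were by-catch. Of 12874 distinct barcodes 289 occurred in more than 1 library. Markers held out from the gates were summed as a check of the classes. The 5 microglial ones (Fcrls, Siglech, Selplg, Ly86, Laptm5) lay between 7712 and 15268 CPM in microglia and between 470.0 and 1750 CPM in astrocytes. The 6 astrocyte ones (Slc4a4, Gpr37l1, Cldn10, Mlc1, F3, Bcan) lay between 8933 and 15187 CPM in astrocytes and between 161 and 1414 CPM in microglia. Within a mouse the level in the wrong class was a median of 7.97% of the level in the right one for microglial markers in astrocytes and 2.90% for astrocyte markers in microglia (12 mice each). The mural list (Notch3, Cald1, Abcc9, Gper1, Ebf1) had a mean of 5554 CPM in mural cells, 409 CPM in endothelial cells and 39.3 CPM in microglia. In mural cells it held 612 UMIs of Cald1, 365 of Abcc9, 116 of Ebf1, 9 of Notch3 and 0 of Gper1. The endothelial list (Pecam1, Ptprb, Cdh5, Adgrl4, Ly6e) separated less well, with a mean of 9512 CPM in endothelial cells and 2267 CPM in microglia, of which Ly6e made up 2196 CPM in pooled microglia. In 4 mice (WT-vehicle 5, Tg2576-vehicle 4, Tg2576-PMX205 2 and 3) over 10% of barcodes matched another barcode of the same library except at the first base. Where such barcodes stem from 1 cell, counts of cells and shares of cells with a UMI in these mice do not count cells singly; whether they do was not tested.

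The sequences before the start sites of Mfge8, Itgb5 and Axl are shown, since Mfge8 was highest in astrocytes, Itgb5 was highest in microglia, and Axl was the member that differed between microglial states. Each line gives the 250 bases upstream of the RefSeq transcription start (GRCm38.p6), 5′ to 3′ on the strand of the gene, in lower case. Capitals mark the core GAGGAA of the myeloid factor PU.1 and the half-site TTGGC of the NFI factors of astrocytes, on either strand; neither motif overlaps the other.
Mfge8 (chr7:79149061-79149310, minus strand): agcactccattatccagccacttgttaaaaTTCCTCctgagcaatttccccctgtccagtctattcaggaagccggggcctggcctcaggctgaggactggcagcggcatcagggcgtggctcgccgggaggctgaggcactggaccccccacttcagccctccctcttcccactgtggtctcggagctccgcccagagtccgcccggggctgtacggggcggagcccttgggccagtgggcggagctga
Itgb5 (chr16:33829415-33829664, plus strand): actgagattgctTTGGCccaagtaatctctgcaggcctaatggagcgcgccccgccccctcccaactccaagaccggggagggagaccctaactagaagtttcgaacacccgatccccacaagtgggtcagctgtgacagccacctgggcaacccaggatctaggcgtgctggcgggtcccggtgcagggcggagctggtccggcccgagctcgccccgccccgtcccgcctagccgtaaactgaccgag
Axl (chr7:25788734-25788983, minus strand): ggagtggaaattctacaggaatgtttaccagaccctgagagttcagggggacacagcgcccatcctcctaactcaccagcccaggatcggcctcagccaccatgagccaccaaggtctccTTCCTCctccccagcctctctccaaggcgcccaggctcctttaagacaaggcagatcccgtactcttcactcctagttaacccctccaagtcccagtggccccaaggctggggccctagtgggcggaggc
The PU.1 core had 1 match before Mfge8, 1 before Axl and 2 before Itgav, and none before Mertk, Tyro3, Gas6, Pros1 and Itgb5. The NFI half-site had 1 match, before Itgb5. Of 32536 distinct windows of this length in the RefSeq table, 23.4% held the PU.1 core and 41.6% the NFI half-site on either strand. These are matches of letters alone, and binding was not measured.

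Axl (chr7:25757273-25788705, minus strand in GRCm38), the TAM receptor best known from activated phagocytes, was highest in mural cells among the compared classes. Its level in the 5 mice with at least 10 mural cells was 363, 484, 523, 770.2 and 890 CPM. The lowest of these was above the highest value of the astrocyte sums used, which was 235 CPM. Of the sums left out for few cells, 9 mural ones (1 to 9 cells) ran from 0 to 1919 CPM on 0 to 7 UMIs each, 3 of those with a UMI at 141, 224 and 305 CPM, and astrocytes of WT-PMX205 3 (19 cells) were at 312 CPM. In the 12 mice with at least 20 astrocytes Axl ran from 48.9 to 235 CPM with a median of 170.2, and in the 15 mice with at least 20 microglia from 0 to 249 CPM with a median of 92.0, so that these classes overlapped. The disease-associated part of the microglia, described below, ran from 166 to 760 CPM in 6 mice and overlapped the mural values. Endothelial cells had 1 Axl UMI over the 5 mice with at least 10 such cells, in Tg2576-vehicle 3. The endothelial level was 0.0647 of the microglial one (exact 95% interval 0.00163 to 0.363, counting error only). The call of this difference was lost in 2 of 11 alternatives, the stricter gate (adjusted p = 0.1001) and cells taken by cluster (log2 fold change -0.91, adjusted p = 0.105). The endothelial cluster held 305 cells, 145 of them in the endothelial gate, and 30 Axl UMIs, at 80.0 CPM, so the low level is read for the gated cells alone.
Within mice, Axl was higher in mural cells than in microglia in 5 of 5, with a log2 fold change of 2.23 (SE 0.39, adjusted p = 5.3e-07). It was higher in astrocytes than in microglia in 10 of 12 mice, by a log2 fold change of 0.87 (SE 0.29, adjusted p = 0.0058). This astrocyte difference no longer passed without the filter on low counts (0.67, adjusted p = 0.109), with cells taken by cluster (0.63, adjusted p = 0.0518) and without the mice of contradicting strain labels (0.60, adjusted p = 0.0835). Thinned to 500 UMIs per cell, 23.5% of mural cells had an Axl UMI, against 7.24% of astrocytes, 3.73% of microglia and 0.207% of endothelial cells; unthinned, the shares were 35.1%, 14.6%, 6.92% and 0.690%. These classes had median depths of 925, 1080, 916 and 1073 UMIs.

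Mertk (chr2:128698956-128802894, plus strand), the TAM receptor tied to steady clearance of dying cells, was at like levels in microglia and astrocytes and low in both vascular classes. It ran from 566 to 1108 CPM with a median of 735 in microglia and from 478 to 834 CPM with a median of 617 in astrocytes. Its level was 96.9, 148, 196, 196 and 227 CPM in mural cells and 0, 72.6, 108, 136 and 234 CPM in endothelial cells. Among the sums used, every mural and endothelial value was below every astrocyte value, while the mural and endothelial ranges overlapped. Sums left out for few cells are not covered by this. The difference of astrocytes from microglia was -0.28 on the log2 scale (SE 0.18, adjusted p = 0.162, interval -0.62 to 0.07), lower in 9 of 12 mice. It passed the threshold without the filter on low counts (-0.54, adjusted p = 0.0401) and with the looser gate (-0.38, adjusted p = 0.0479). Mertk fell by 2.41 on the log2 scale from microglia to mural cells (SE 0.35, adjusted p = 4.1e-09) and by 3.13 from microglia to endothelial cells (SE 0.40, adjusted p = 1.6e-11), lower in 5 of 5 mice in both. The Mertk level in mural cells was a median of 24.0% of the level in microglia of the same mouse, where the held-out microglial markers were at 8.73%.

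Tyro3 (chr2:119797733-119818104, plus strand), the TAM receptor known from neurons and glia of the central nervous system, had 60 UMIs over all kept cells and was too low to be tested. Astrocytes of the 12 mice held 42 of them and microglia of the 15 mice held 4. Tyro3 was seen in the astrocytes of 9 of the 12 mice, where it was also above the microglia of the same mouse, and the highest astrocyte value was 85.5 CPM, in Tg2576-vehicle 2. The ratio of the pooled astrocyte level (28.6 CPM) to the pooled microglial level (1.48 CPM) was 19.3 (exact 95% interval 7.02 to 74.2, counting error only). Without the filter on low counts the log2 fold change was 3.66 (adjusted p = 3.9e-05). No Tyro3 UMI was found in 191 mural or 145 endothelial cells, which allows up to 15.2 and 16.7 CPM (3 UMIs over each class).

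**Figure D1:**
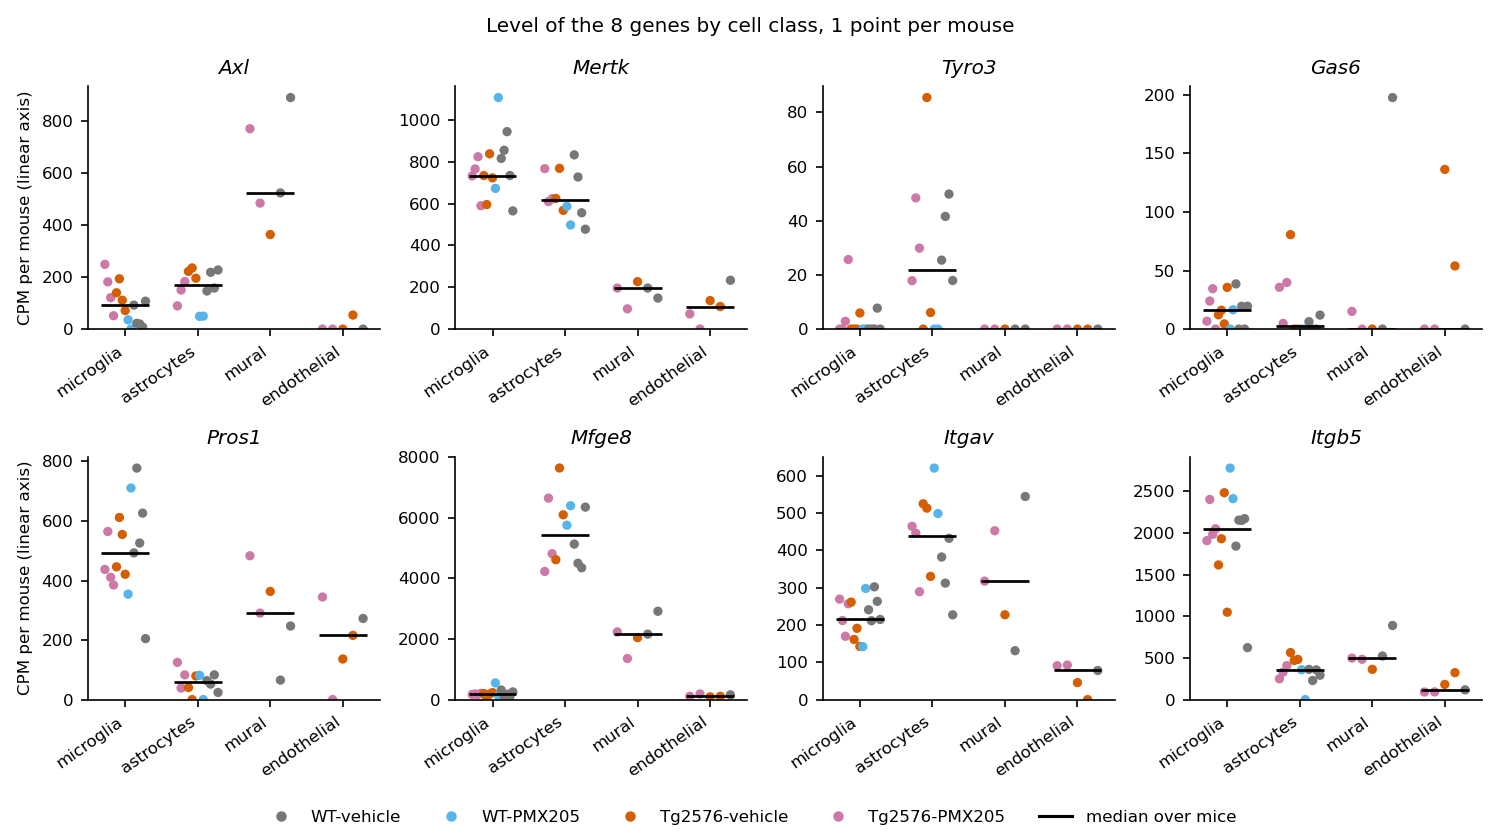
Level of each of the 8 genes in CPM (linear axes that start at 0 and differ between panels), with 1 point per mouse for the 15 mice with enough microglia, 12 with enough astrocytes and 5 with enough mural or endothelial cells, colored by study arm, and a bar at the median. Mfge8 sits highest in astrocytes, Itgb5 and Pros1 in microglia and Axl in mural cells, and Tyro3 and Gas6 rest on few UMIs.

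Gas6 (chr8:13465374-13494490, minus strand), the ligand of all TAM receptors, had 146 UMIs over all kept cells and was not tested. Its median was 16.1 CPM in microglia (range 0 to 38.6 over 15 mice) and 2.42 CPM in astrocytes (range 0 to 80.7 over 12 mice). The 5 mural values ran from 0 to 198 CPM and the 5 endothelial values from 0 to 136 CPM, on 5 and 4 UMIs. All classes overlapped. Among the gated classes the pooled level was highest in the 30 PVM, at 188 CPM on 8 UMIs (exact 95% Poisson interval 81.1 to 370.3). It was 20.2 CPM in pooled microglia (15.2 to 26.3). By cluster, Gas6 was 163 CPM on 20 UMIs in the OPC cluster (79 cells) and 91.1 CPM on 19 UMIs in the ependymal cluster (113 cells). Only 13 and 8 cells of these clusters were in the OPC and ependymal gates, so the ranking covers gated cells alone. PVM came from 10 mice with at most 7 cells each and were not tested.

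Pros1 (chr16:62854307-62929346, plus strand), which codes for protein S, a TAM ligand better known as an anticoagulant in plasma, was highest in microglia. It ran from 204.8 to 778 CPM with a median of 493 in microglia and from 0 to 125 CPM with a median of 57.8 in astrocytes, and these ranges did not overlap. Of the astrocyte sums left out for few cells, Tg2576-vehicle 4 (9 cells) was at 1059 CPM on 13 UMIs and WT-vehicle 5 (5 cells) at 217 CPM on 2 UMIs, both above the lowest microglial value. Mural values were 65.4, 247, 291, 363 and 483 CPM and endothelial values 0, 136, 216, 273 and 345 CPM, so that both overlapped microglia. Pros1 was lower in astrocytes than in microglia in 12 of 12 mice and fell by 3.12 on the log2 scale (SE 0.26, adjusted p = 4.6e-21). The astrocyte level was a median of 10.98% of the microglial one (range 0 to 28.6%), where the held-out microglial markers were at 7.97% (range 3.42 to 14.0%); the part of microglial RNA in it was not tested. Pros1 fell by 1.57 from microglia to endothelial cells (SE 0.40, adjusted p = 0.00067) and by 1.05 to mural cells (SE 0.37, adjusted p = 0.016). The mural call was lost without WT-vehicle 1 (-0.78, adjusted p = 0.11), without WT-vehicle 4 (-0.82, adjusted p = 0.107) and in 6 of 11 other alternatives, with values up to -0.68 and adjusted p-values up to 0.197. From astrocytes to endothelial cells Pros1 rose by 1.55 (SE 0.46, adjusted p = 0.0031, higher in 4 of 5 mice), which was lost without Tg2576-PMX205 2, the mouse with 53 of the 108 endothelial cells (1.09, adjusted p = 0.125), and in 3 of 11 other alternatives, with values down to 0.46 and adjusted p-values up to 0.593.

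Mfge8 (chr7:79133768-79149060, minus strand), which bridges phosphatidylserine to integrins, was highest in astrocytes. It ran from 4231 to 7648 CPM with a median of 5447 in the astrocytes of 12 mice. Mural values were 1356, 2044, 2159, 2235 and 2917 CPM, below every astrocyte value and above every microglial one among the sums used. Microglia ran from 64.4 to 549 CPM with a median of 182, and endothelial values were 90.9, 108, 109, 156 and 185 CPM. Mfge8 rose from microglia to astrocytes by 4.90 on the log2 scale (SE 0.20, adjusted p = 8.2e-47), which is 29.9-fold, and was higher in astrocytes in 12 of 12 mice. It rose from microglia to mural cells by 3.13 (SE 0.26, adjusted p = 4.2e-21, 5 of 5 mice). In microglia Mfge8 was a median of 3.22% of its level in astrocytes of the same mouse (range 0.842 to 9.54%), and the 6 held-out astrocyte markers were at 2.90% (range 1.14 to 5.64%). In mural cells Mfge8 was at 33.6% of the astrocyte level, where those markers were at 2.48%. The difference of endothelial cells from microglia was -1.01 (SE 0.42, adjusted p = 0.047, lower in 4 of 5 mice), with -0.46 as the median of all genes in the same fit. It did not pass in 9 of 16 fits that left out a mouse or in 7 of 11 other alternatives, and turned to 1.23 (adjusted p = 1.1e-04) with cells taken by cluster. Thinned to 500 UMIs, 81.9% of astrocytes, 55.4% of mural cells, 9.02% of microglia and 5.55% of endothelial cells had an Mfge8 UMI; unthinned, these were 91.4%, 71.7%, 14.5% and 11.03%.

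Itgav (chr2:83724397-83806916, plus strand), the alpha V integrin chain that pairs with several beta chains, was lowest in endothelial cells. Astrocytes ran from 227 to 620 CPM with a median of 439, mural cells from 131 to 544 CPM with a median of 317 and microglia from 142 to 302 CPM with a median of 215, all overlapping. Endothelial values were 0, 45.5, 77.9, 90.7 and 92.5 CPM, below every microglial value among the sums used. Sums left out for few cells are not covered by this. Itgav was higher in astrocytes than in microglia in 11 of 12 mice, by a log2 fold change of 0.89 (SE 0.21, adjusted p = 9.4e-05), and fell by 1.98 from microglia to endothelial cells (SE 0.51, adjusted p = 0.00072). The difference of mural cells from microglia was 0.50 (SE 0.35, adjusted p = 0.261), 0.86 (adjusted p = 0.0385) when counts were scaled by library totals and -0.14 (adjusted p = 0.995) without the filter on low counts.

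Itgb5 (chr16:33829665-33949338, plus strand), the beta chain that pairs with alpha V, was highest in microglia. It ran from 624 to 2781 CPM with a median of 2053 in 15 mice, and the lowest value, in WT-vehicle 5, stood apart from the other 4 WT-vehicle mice at 1844 to 2173 CPM. Mural values were 363, 484, 498, 523 and 890 CPM, astrocytes ran from 0 to 565 CPM with a median of 358, and endothelial values were 90.7, 92.5, 117, 182 and 324 CPM. Neighbors in this order overlapped, and among the sums used microglia overlapped mural cells only through WT-vehicle 5. Sums left out for few cells are not covered by this. Itgb5 was lower in astrocytes than in microglia in 12 of 12 mice and fell by 2.61 on the log2 scale (SE 0.20, adjusted p = 8.2e-25), fell by 2.31 to mural cells (SE 0.31, adjusted p = 1.6e-10) and fell by 4.25 to endothelial cells (SE 0.39, adjusted p = 1.6e-18). The astrocyte level was a median of 15.1% of the microglial one (range 0 to 34.9%), above the 7.97% of the held-out microglial markers. Thinned, 49.0% of microglia, 21.1% of mural cells, 14.0% of astrocytes and 4.31% of endothelial cells had an Itgb5 UMI; unthinned, these were 64.5%, 34.03%, 26.2% and 10.3%.

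**Figure D2:**
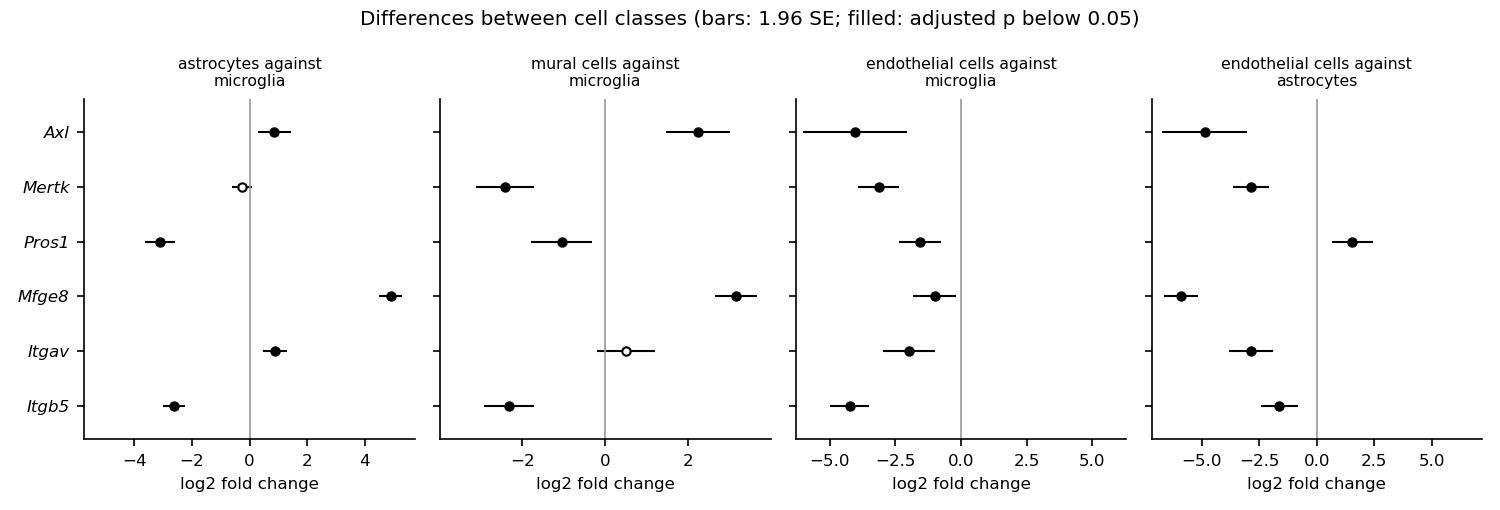
Log2 fold changes of the 6 tested genes between cell classes, with bars of the 95% interval and filled points for an adjusted p below 0.05; each panel has its own horizontal axis. Mfge8 is to the right and Pros1 and Itgb5 to the left for astrocytes against microglia, and all 6 genes are to the left for endothelial cells against microglia.

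Of the 6 members that passed the filter, 5 were called between astrocytes and microglia (3 higher and 2 lower in astrocytes), beside 69.0% of all 2822 genes tested, a share that leaves little to read from the count. All 6 were lower in endothelial cells than in microglia, with 41.5% of all genes called. With the stricter gate 559 of 6445 genes were called and 2 members (Mertk and Itgb5), while Pros1 (adjusted p = 0.0764), Axl (0.1001), Itgav (0.104) and Mfge8 (0.255) were not. Between mural cells and microglia 5 were called, 2 higher and 3 lower, with 42.6% called. Between endothelial cells and astrocytes 6 were called, 1 higher and 5 lower, with 46.7% called. The fit used mice with at least 2 classes (12 with microglia and astrocytes, 5 with mural and 5 with endothelial cells, 4 of them with both). Scaling by library totals moved the median of all genes from -0.46 to -0.01 for endothelial cells against microglia, from -0.26 to 0.11 for mural cells against microglia and from -0.37 to 0.10 for endothelial cells against astrocytes, and DESeq2 moved it from -0.05 to 0.20 for astrocytes against microglia. No called member changed direction under either.

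Disease-associated microglia (DAM) are the phagocytic state that microglia take on near amyloid plaques, and Axl is among the receptors described in it. Microglia were put in a DAM gate when they had UMIs of at least 2 of 8 DAM genes, which did not include the 8 genes described here (Cst7, Lpl, Itgax, Csf1, Clec7a, Spp1, Gpnmb, Ccl6). In the 6 Tg2576 mice with at least 10 such cells (253 cells), Axl was 166, 193, 309, 318, 418 and 760 CPM in DAM-gate cells and 114, 31.5, 81.6, 36.2, 57.8 and 55.6 CPM in the other microglia of the same mice. All DAM-gate values were above all values of the other microglia. The log2 fold change was 2.50 (SE 0.34, adjusted p = 7.6e-09), or 5.64-fold, higher in 6 of 6 mice, and it stayed between 2.25 and 2.99 under all alternatives. Axl was the only one of the 6 tested members to pass, with 5.14% of 2257 genes called. The median depth was 1263 UMIs in DAM-gate cells and 880 UMIs in the others, and the gate favors deeper cells.
Mertk went from 827 ± 113 CPM in the other microglia to 612 ± 180 CPM in DAM-gate cells (SD, n = 6 mice), a log2 difference of -0.42 (SE 0.20) that missed the threshold (adjusted p = 0.272), lower in 5 of 6 mice. The differences of Pros1 (-0.13), Mfge8 (-0.28), Itgav (-0.09) and Itgb5 (0.11) had adjusted p-values of 0.80 to 0.95, with 95% intervals that reached from -0.95 for Mfge8 to 0.52 for Itgav. Over all mice the DAM gate held 11.4% of microglia, 17.0% of their UMIs of all genes and 53.5% of their Axl UMIs (169 of 316).

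**Figure D3:**
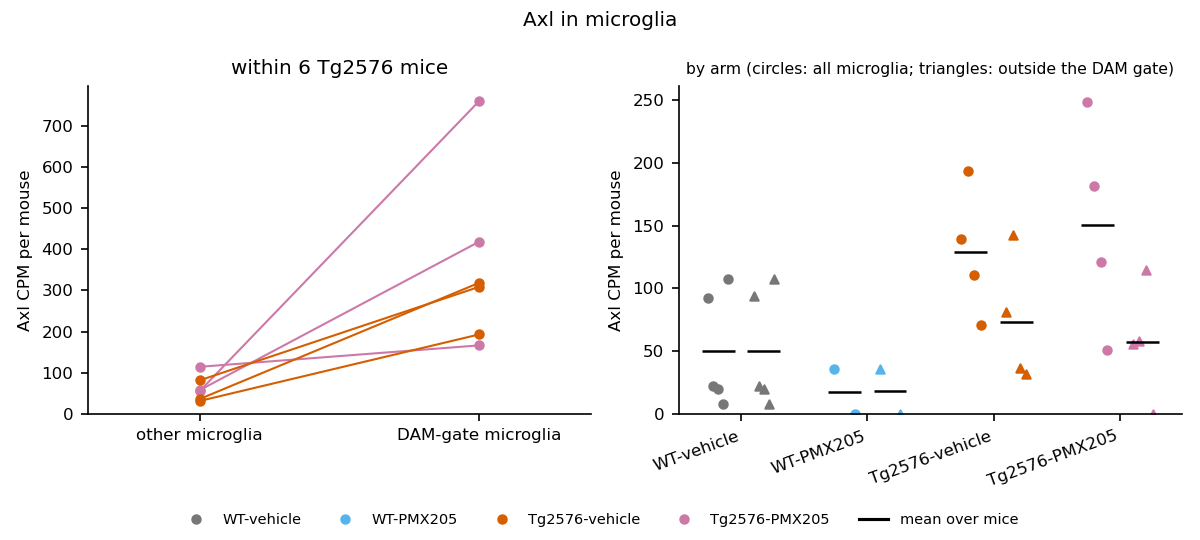
Axl in CPM of microglia: on the left, lines join other and DAM-gate microglia of the same Tg2576 mouse; on the right, 1 point per mouse by arm for all microglia (circles) and those outside the DAM gate (triangles), with bars at the mean. Axl is higher in DAM-gate cells in 6 of 6 mice, and outside the gate the arms overlap.

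By genotype, Axl in all microglia was 71.2, 111, 140 and 193 CPM in the 4 Tg2576-vehicle mice and 7.73, 19.5, 22.2, 92.0 and 107 CPM in the 5 WT-vehicle mice. The groups overlapped through WT-vehicle 1 and WT-vehicle 5. The 3 lowest WT-vehicle values rested on 1 or 2 UMIs each. The log2 fold change was 1.22 (SE 0.50, unadjusted p = 0.019), which did not pass over all genes (adjusted p = 1.0). It lay between 0.95 and 1.72 in the fits that left out a mouse. Over the other alternatives it lay between 0.37 and 2.04, and these include the fit outside the DAM gate that follows. In microglia outside the DAM gate, a comparison added after the data were seen, it was 0.37 (SE 0.67, adjusted p = 1.0), with means of 72.9 ± 51.6 CPM in Tg2576-vehicle and 50.1 ± 46.6 CPM in WT-vehicle (SD, n = 4 and 5 mice). The DAM gate held between 10.3 and 22.9% of microglia in Tg2576-vehicle and between 0 and 0.923% in WT-vehicle.
No member was called between Tg2576-vehicle and WT-vehicle in microglia, where 0.144% of 4853 genes passed. Mertk was 723 ± 99.5 CPM in Tg2576-vehicle and 783 ± 143 CPM in WT-vehicle, and Pros1 508 ± 90.1 and 526 ± 211 CPM. The interval of the log2 difference was -0.57 to 0.43 for Mertk, -0.62 to 0.56 for Pros1, -0.84 to 0.59 for Mfge8, -0.90 to 0.30 for Itgav and -0.56 to 0.59 for Itgb5 (95% intervals from the SE), so a log2 difference of 1 in either direction lay outside for these 5 genes. In astrocytes none of the 5 tested members was called either, with 0.0% of 3955 genes called (174 had an unadjusted p under 0.05, and DESeq2 called 0). Itgb5 in astrocytes was 470.0, 483 and 565 CPM in the 3 Tg2576-vehicle mice and 229, 293, 357 and 363 CPM in the 4 WT-vehicle mice, without overlap, with a log2 difference of 0.66 (SE 0.35, adjusted p = 0.988). WT-vehicle 5, left out at 5 astrocytes, was at 543 CPM on 5 UMIs, within the Tg2576-vehicle range. The share of all genes that separate in groups this small was not computed, so no difference is read from the gap.

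PMX205 treatment was compared with vehicle within each genotype; the comparisons share the vehicle groups with those of genotype. In Tg2576 microglia Axl was 51.3, 121, 182 and 249 CPM under PMX205, around the vehicle values given above, with a log2 difference of 0.36 (SE 0.48, adjusted p = 1.0). Itgb5 was 2088 ± 219 CPM under PMX205 and 1771 ± 600 CPM under vehicle (SD, n = 4 each), a difference of 0.21 (interval -0.39 to 0.82). None of the 6 tested members was called, with 0.0% of 4853 genes called (126 genes had an unadjusted p under 0.05, and DESeq2 called 0). In WT microglia only 2 PMX205 mice had enough cells. Their Axl level was 35.4 CPM, on 2 UMIs, and 0 CPM. Their Itgb5 level was 2781 and 2414 CPM, above the 624 to 2173 CPM of the 5 WT-vehicle mice (log2 difference 0.54, SE 0.36, adjusted p = 0.787). WT-PMX205 3, left out at 11 microglia, had Itgb5 at 1819 CPM, within the vehicle range. No member was called, with 0.0% of genes called (348 with an unadjusted p under 0.05, and DESeq2 called 0). The treatment effect in Tg2576 did not differ detectably from that in WT for any member in microglia (0.0% called, 222 genes with an unadjusted p under 0.05, 0 by DESeq2, lowest adjusted p = 0.971 among the members) or in astrocytes (0.0% called, 248 genes with an unadjusted p under 0.05, 0 by DESeq2, lowest adjusted p = 0.84).
In Tg2576 astrocytes Axl was 89.3, 150.1 and 183 CPM under PMX205 and 195, 222 and 235 CPM under vehicle, and Itgb5 250, 329 and 408 CPM against the 470.0 to 565 CPM given above. Neither pair of groups overlapped among the mice used, while Tg2576-vehicle 4, left out at 9 astrocytes, had Axl at 81.5 CPM on 1 UMI. The share of all genes that separate in groups this small was not computed, so no difference is read from these gaps. Neither difference passed (Axl -0.49, SE 0.42; Itgb5 -0.55, SE 0.37; adjusted p = 1.0 for both), with 0.0% of 3955 genes called (161 with an unadjusted p under 0.05, and DESeq2 called 0). In WT astrocytes Axl was 48.9 and 49.8 CPM in the 2 PMX205 mice, on 3 and 2 UMIs, and 146, 158, 218 and 227 CPM in the 4 vehicle mice. The log2 difference of -1.91 (SE 0.65, unadjusted p = 0.0049) did not pass over all genes (adjusted p = 0.488), where 0.0253% of 3955 genes did. WT-PMX205 3 was left out at 19 astrocytes, 1 below the minimum, and its Axl level was 312 CPM on 9 UMIs, above every vehicle value. With a minimum of 10 cells, added after the data were seen, the log2 difference with this mouse was -0.71 (SE 0.52, adjusted p = 0.798), so no direction is read for Axl. Itgav in the same cells was 498 and 620 CPM under PMX205 and 338 ± 89.0 CPM under vehicle (n = 4; log2 difference 0.74, SE 0.36, adjusted p = 0.683). WT-PMX205 3 was at 312 CPM, below the vehicle mean, and with it the difference was 0.55 (SE 0.34, adjusted p = 0.768). No member passed between the arms with the cells of the cortex alone, or with those of the hippocampus alone where a fit could be made (not for the WT treatment).

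**Figure D4:**
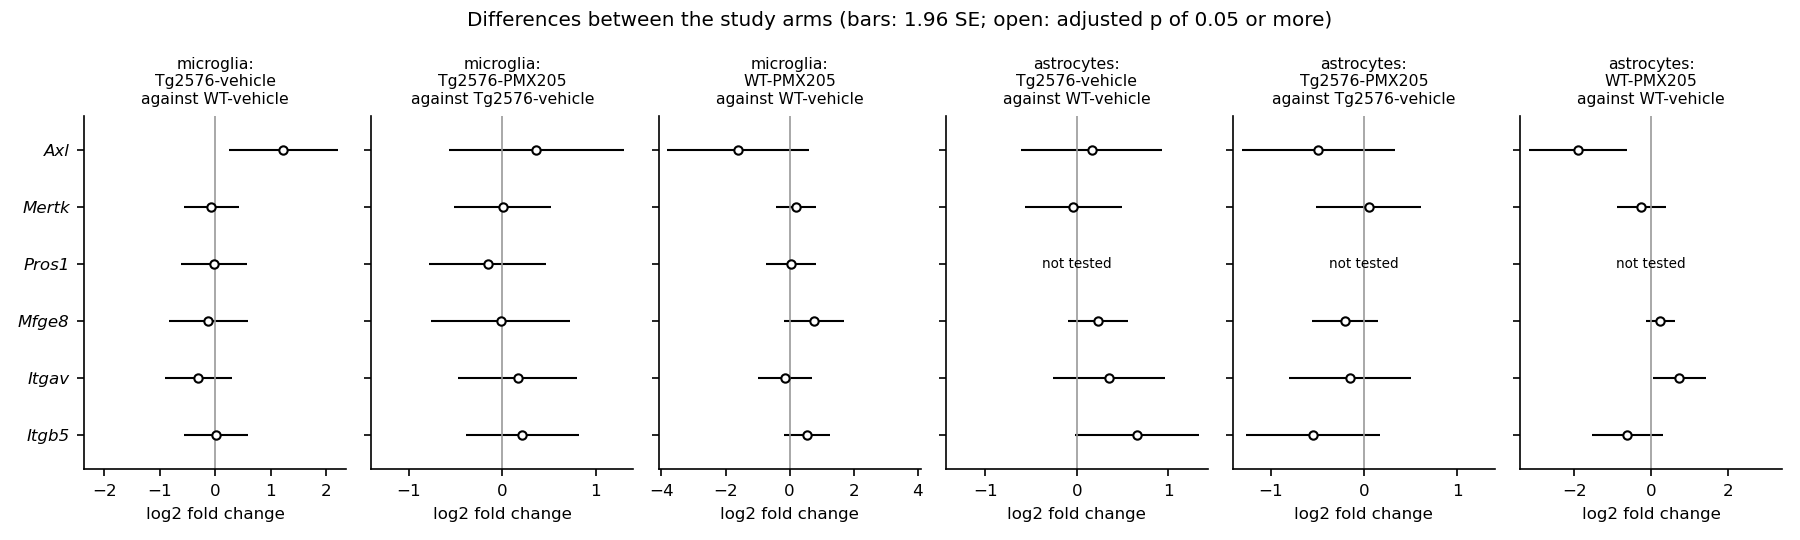
Log2 fold changes of the tested members between study arms in microglia (left 3 panels) and astrocytes (right 3 panels), with bars of the 95% interval; Pros1 was too low to be tested in astrocytes, and each panel has its own horizontal axis. Every point is open, as no adjusted p was below 0.05, and bars clear of 0 are those of Axl in microglia by genotype and of Axl and Itgav in WT astrocytes by treatment.

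The regions of the same mouse were compared for 8 mice with enough microglia in both and 7 with enough astrocytes in both. Mfge8 in microglia was 223 ± 91.5 CPM in cortex and 102 ± 71.4 CPM in hippocampus (SD, n = 8), higher in cortex in 7 of 8 mice. The exception was WT-vehicle 2, at 56.6 CPM on 3 UMIs in cortex and 216 CPM on 8 UMIs in hippocampus. The log2 difference of hippocampus from cortex was -1.30 (SE 0.32), which missed the threshold (adjusted p = 0.0998), and it passed without WT-vehicle 2 (-1.56, adjusted p = 0.0087), with doublets kept (-1.37, adjusted p = 0.038) and without the filter on low counts (-1.38, adjusted p = 0.0189). The 6 held-out astrocyte markers in the same microglia were 497 ± 295 CPM in cortex and 213 ± 108 CPM in hippocampus, higher in cortex in 6 of 8 mice; their part in the Mfge8 difference was not tested. In astrocytes Mfge8 was 5248 ± 868 CPM in cortex and 5940 ± 1513 CPM in hippocampus (n = 7; log2 difference 0.18, SE 0.11, adjusted p = 0.4656).
No member was called by region, with 0.265% of 1890 genes called in microglia and 3.87% of 1007 in astrocytes. Mertk, Pros1, Itgav and Itgb5 in microglia had log2 differences of -0.08, 0.09, 0.20 and 0.08, with SE of 0.11 to 0.23. In astrocytes Itgav was 382 ± 75.1 CPM in cortex and 245 ± 140 CPM in hippocampus, a difference of -0.69 (SE 0.31, adjusted p = 0.278), lower in hippocampus in 6 of 7 mice. The held-out microglial markers in the same astrocytes were 1347 ± 399.8 CPM in cortex and 434 ± 362 CPM in hippocampus, higher in cortex in 7 of 7 mice; their part in the Itgav difference was not tested. Axl was not tested by region in microglia, where it was 83.1 ± 51.5 CPM in cortex and 164 ± 157 CPM in hippocampus, higher in hippocampus in 4 of 8 mice.

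**Figure D5:**
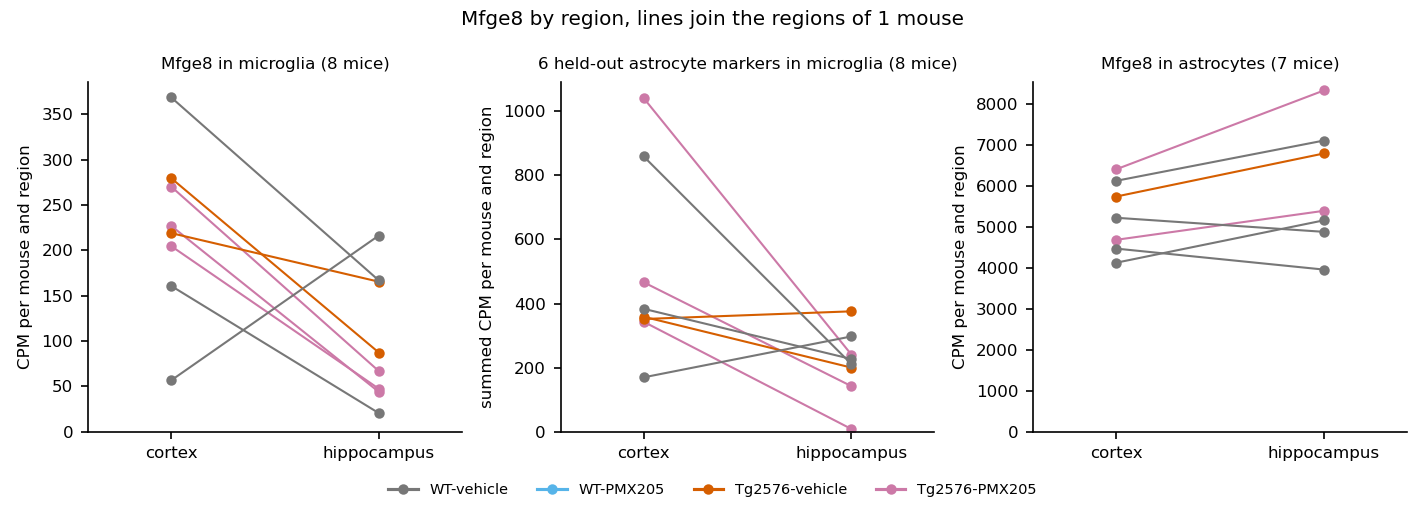
CPM per mouse and region for Mfge8 in microglia (left), the sum of 6 held-out astrocyte markers in the same microglia (middle) and Mfge8 in astrocytes (right), with lines that join the regions of 1 mouse, and axes that start at 0 and differ between panels. Mfge8 in microglia is lower in hippocampus in 7 of 8 mice and the markers in 6 of 8.

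Other genes of the route were described from 3 lists: 20 further receptors and bridging proteins for dying cells, 21 genes of the engulfment machinery and of don't-eat-me signals, and 7 integrin partners. Between astrocytes and microglia 3 of 7 tested receptors and bridging proteins were higher in astrocytes and 4 lower, beside 69.0% of all genes called in either direction. Among those higher were Megf10 (4.76, SE 0.44) and Adgrb1, also called Bai1 (4.49, SE 0.47), both engulfment receptors of glia. Of the machinery 4 of 15 were higher in astrocytes and 9 lower, and among those lower were Dock2 (-4.15, SE 0.38) and Vav1 (-3.94, SE 0.35), activators of Rac in blood-lineage cells. Itgb8, another partner of alpha V, was higher in astrocytes (3.97, SE 0.36) and Itgb2 lower (-3.96, SE 0.31), with adjusted p-values of 9.6e-19 or less for 5 of these 6 genes and 1.1e-15 for Adgrb1. The median log2 fold change was -0.71, -0.84 and -1.72 over the tested genes of the 3 lists, beside -0.05 over all genes.
Endothelial cells had 1 receptor or bridging protein higher than microglia and 4 lower of 7, 2 machinery genes higher and 8 lower of 15, and 1 integrin partner lower of 3, beside 41.5% of all genes called. The 6 with the widest differences were Dock2, Vav1, Itgb2, Cd14, Trem2 and Elmo1, all lower. Fitted folds of these list genes are not given in the vascular classes, except for Ptk2. In mural cells the counts were 1 higher and 3 lower of 7, 1 higher and 7 lower of 15, and 1 higher and 1 lower of 3, beside 42.6% of all genes called. Ptk2, the focal adhesion kinase, was higher (4.88, SE 0.45, adjusted p = 8.2e-18), and Elmo1, Cd14, Rac2, Abca1 and Trem2 were lower. Between endothelial cells and astrocytes 0 receptors were higher and 3 lower of 7, 1 machinery gene higher and 3 lower of 15, and 1 integrin partner higher and 1 lower of 3, beside 46.7% of all genes called, with Itgb8, Megf10, Adgrb1, Abca1, Lrp1 and Sirpa all lower in endothelial cells.
In DAM-gate cells, where 5.14% of all genes were called, 3 of 5 tested receptors and bridging proteins rose: Anxa5, which binds phosphatidylserine (1.23, SE 0.36, adjusted p = 0.02), the receptor Cd14 (0.95, SE 0.25, adjusted p = 0.0064) and Trem2, a lipid receptor of microglia (0.76, SE 0.16, adjusted p = 4.7e-04). Elmo1, an adaptor for Rac activation, fell by 0.85 (SE 0.23, adjusted p = 0.011), as 1 of 12 tested machinery genes, and 0 of 2 integrin partners passed. The medians of the 3 lists were 0.76, -0.07 and 0.07, beside -0.03 over all genes. No gene of the 3 lists was called between the arms or the regions in microglia or astrocytes.

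The genes whose level followed each member most closely over 39 sums by mouse and class (Pearson correlation of log2(CPM + 10), over 8060 genes) were given as a description, since sums of 1 class share markers and those of 1 mouse share libraries. Mfge8 was closest to Rgma (r = 0.96), Atp1b2 (0.95, itself a gate marker) and Fxyd1 (0.94), genes high in astrocytes. Itgb5 was closest to Gdi2 (0.86), Fcgr3 (0.85) and Tyrobp (0.83, a gate marker), and Pros1 to Unc93b1 (0.84), Rpl18 (0.83) and Zfhx3 (0.81). Mertk was closest to Frmd4a (0.88), Vegfb (0.83) and Celf2 (0.83), Axl to Cd63 (0.84), Lbh (0.77) and Snx14 (0.77), Itgav to Slc25a3 (0.83) and Mdh1 (0.78), and Gas6, which is sparse, to Bcl9 (0.62), Trappc2l (0.59) and Ino80 (0.58). Among the members, Pros1 and Itgb5 had the highest correlation (r = 0.71) and Pros1 and Mfge8 the lowest (r = -0.68).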

How the data were processed

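The authors deposited UMI counts per gene and barcode, 1 table per library, made with kb_python (kallisto bustools) on mm10 with GENCODE annotation from SureCell 3′ libraries (bcl2fastq 2.18.0.12 per the labels), without normalization. Cells with under 500 UMIs, under 300 genes or over 5% mitochondrial UMIs were left out. Doublets were scored per library with Scrublet in scanpy 1.11.5 (Python 3.11.15), and the highest 6% of scores left out. A cell was put in a class with UMIs of at least 3 markers and 75% of all marker UMIs, and was PVM with 2 PVM genes among microglia. Counts were summed by mouse and class (at least 20 microglia or astrocytes, 10 vascular or DAM-gate cells), and edgeR 4.0.16 (R 4.3.3; filterByExpr, TMM, quasi-likelihood) tested all genes, with Benjamini-Hochberg adjustment and a threshold of 0.05. All adjusted p-values are from edgeR unless another tool is named. Comparisons of classes, regions and the DAM gate kept the mouse as a block, as the mouse names in the labels pair these sums; replicate numbers of the arms pair nothing. Levels in CPM used plain totals rather than TMM, and 3′ counts were not compared between genes. P-values measure the spread between mice. Where counts were pooled, exact intervals and limits (3 UMIs for a count of 0) cover counting error only. Depth was 37205 to 1072049 UMIs per library, and low genes rested on few UMIs. The part of counting error in their spread between mice was not tested. Alternatives were DESeq2 1.42.0, other scalings, filters, gates and depths, each mouse left out, and mice with contradicting strain labels or paired barcodes left out. Mice with additional strain labels were left out in comparisons of arms alone, and not in those of classes, regions or the DAM gate.

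The 8 genes and the lists were chosen with earlier results of these data known. All 8 members were looked up in every comparison, and the text gives those with values that bear on it. Of the pathway lists the text names called genes, at most 6 per comparison by absolute log2 fold change. For each member with at least 100 UMIs it names the 3 genes of highest correlation, of which 1 is not reported here. Coordinates are from GENCODE M21, where no exon of another gene lies in the last 1000 bases of a member. Tables and plots were made with pandas 2.3.3, NumPy 2.4.6, SciPy 1.17.1 and matplotlib 3.10.9. Comparing arms in microglia outside the DAM gate, and with a minimum of 10 cells per mouse, was chosen after seeing the data.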

Additional observations from a re-analysis of the deposited data

Results flagged for a closer look

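A mouse stood far from its group in 6 of the 79 groups of 4 to 10 mice with at least 10 UMIs, and chance flags about 1 group in 20. Itgb5 in the microglia of WT-vehicle 5 was 624 CPM beside a group median of 2153 CPM (n = 5). Mertk in the hippocampal astrocytes of WT-vehicle 1 was 1060 CPM (group median 589 CPM, n = 7), and Pros1 in those of WT-vehicle 3 was 336 CPM (median 36.8 CPM, n = 7). Mertk in the DAM-gate microglia of Tg2576-PMX205 1 was 956 CPM (median 556 CPM, n = 6). Gas6 was 37.01 CPM in the cortical astrocytes of Tg2576-PMX205 3 (median 0 CPM, n = 7) and 121 CPM in the DAM-gate microglia of Tg2576-vehicle 4 (median 11.9 CPM, n = 6), both on few UMIs. WT-vehicle 5, Tg2576-PMX205 3 and Tg2576-vehicle 4 are mice with paired barcodes.

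Cells outside the compared classes also held UMIs of the members. In the 30 PVM the pooled levels were 305 CPM for Axl, 587 for Mertk, 188 for Gas6, 141 for Pros1, 141 for Mfge8 and 611 for Itgb5, and the ratio to pooled microglia was 2.63 for Axl (exact 95% interval 1.38 to 4.56), 9.29 for Gas6 (3.82 to 19.6), 0.284 for Pros1 (0.104 to 0.619) and 0.309 for Itgb5 (0.202 to 0.454), counting error only. Itgav had 0 UMIs in PVM, which allows up to 70.5 CPM, against 220 CPM in pooled microglia. Mfge8 and Itgav were each 242 CPM in 13 OPC, on 6 UMIs, and Itgav was 251 CPM in 5 neurons, on 4 UMIs. In the 1708 cells of no class the pooled levels were 120.4 CPM for Axl, 464 for Mertk, 6.11 for Tyro3, 31.2 for Gas6, 244 for Pros1, 1319 for Mfge8, 226 for Itgav and 611 for Itgb5.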

How the results depend on the processing

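The number of members called was compared over 442 alternatives of 15 comparisons and kept within 1.5 times in 437. The exceptions were endothelial cells against microglia with the stricter gate (2 called), microglia of hippocampus against cortex without the filter on low counts (1 called) and with doublets kept (1 called), and 2 of the fits that left out a mouse. Leaving out mice gave 0 to 1 members for hippocampus against cortex in microglia (1 without WT-vehicle replicate 2) and 0 to 1 for WT-PMX205 against WT-vehicle in astrocytes (1 without WT-PMX205 replicate 1, Itgb5, listed at 0 in the 1 mouse left). Of 622 values for the 23 called member differences, 586 stayed called in the same direction, 35 missed the threshold and 1 reversed: Mfge8 in endothelial cells against microglia with cells taken by cluster (1.23). The cause was not tested. For members that were not called, 172 of 1849 values had the other sign, so no direction is read from them. Leaving out the replicate block lost the call of Mfge8 in endothelial cells against microglia (-0.95, adjusted p = 0.0577, edgeR) and no other call among the members. Vascular classes rest on 5 mice each, WT-PMX205 on 2, and Tyro3 and Gas6 on too few UMIs for a test.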
